A study of Rattus norvegicus with 16 samples.

Results

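The cytosolic ribosomal protein genes encode the protein part of the ribosome, and 44 of the 10411 genes measured in this rat brain series by a probe set of 1 gene symbol belong to them. They were taken by name: every symbol that starts with Rps or Rpl and a digit, with Rpsa and the P-protein genes, and without the S6 kinases. The 44 genes have 50 probe sets among 15866 tested, and the brightest probe set stands for a gene. By role they are 12 small-subunit genes, 28 large-subunit genes and 4 paralogues (Rpl3l, Rpl7l1, Rps27l and Rps4y2). Another 34 probe sets whose annotation names several genes, at least 1 of them a ribosomal protein gene, were not used, so the family is not complete here.

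The series followed the response of 2 hippocampal fields to oxidative stress over time. RNA came from organotypic hippocampal slice cultures of Rattus norvegicus, which are pieces of brain kept alive on a dish, and from either the CA1 or the CA3 field. Each field was sampled at T0 and then after 30 min, 3 h and 12 h, with 2 arrays in each of the 8 groups and 16 arrays in all. The labels used here give no strain, age, agent or dose and do not say how T0 relates to the stress, and a slice holds pyramidal neurons, interneurons, glia and microglia together. The 2 arrays of a group are called biological replicates, but nothing says that they came from separate animals, so the p-values below measure the spread between these samples. In such mixed tissue, fewer cells of a type and less RNA per cell cannot be told apart.

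A ribosome has a small subunit, which reads the mRNA, and a large subunit, which joins amino acids and holds the tunnel through which the new chain leaves. Growing and dividing cells put much of their transcription into ribosomes, and neurons keep ribosomes in the cell body and in dendrites. Most ribosomal protein mRNAs begin with a run of pyrimidines, the 5′ terminal oligopyrimidine (TOP) tract, through which the kinase mTOR and the protein Larp1 control how much of each mRNA is translated or stored. That control acts on translation and mRNA stability, and an array reads mRNA amount only.

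The start-site sequences of 8 genes are shown because the TOP tract is the feature the family is known for and because the genes with the lowest values after T0 differ in it. Each line gives 40 bases before and 20 bases from the annotated start of the gene, 5′ to 3′ on the gene's strand, from RefSeq on build GRCr8. Capitals mark a tract that starts with C, holds only C and T, is at least 7 bases long and begins within 20 bases of the annotated start; a line without capitals holds no such run. The windows are chr16:96477-96536 (plus strand) for Rps24, chr1:172974533-172974592 (plus) for Rpl27a, chr5:168117921-168117980 (plus) for Rpl22, chr1:104748894-104748953 (minus) for Rpl13a, chr12:46718371-46718430 (minus) for Rplp0, chr3:36661900-36661959 (plus) for Rpl12, chr10:54109652-54109711 (plus) for Rpl26 and chr1:181860265-181860324 (minus) for Rps15a.
Rps24: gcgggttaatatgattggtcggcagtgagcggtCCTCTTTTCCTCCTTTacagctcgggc
Rpl27a: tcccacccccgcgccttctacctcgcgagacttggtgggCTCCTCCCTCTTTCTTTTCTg
Rpl22: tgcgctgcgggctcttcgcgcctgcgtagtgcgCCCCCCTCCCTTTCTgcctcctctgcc
Rpl13a: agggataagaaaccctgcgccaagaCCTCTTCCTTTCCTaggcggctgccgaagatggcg
Rplp0: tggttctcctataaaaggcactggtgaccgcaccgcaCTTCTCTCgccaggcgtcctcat
Rpl12: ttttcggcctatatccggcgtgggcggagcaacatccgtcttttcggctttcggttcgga
Rpl26: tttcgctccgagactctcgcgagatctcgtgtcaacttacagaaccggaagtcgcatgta
Rps15a: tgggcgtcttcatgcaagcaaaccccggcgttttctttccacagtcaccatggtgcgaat

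A promoter entry was matched for 37 of the 44 genes. A tract that begins within 20 bases of the annotated start was present in 22 of them (59.5%), against 6555 of 33469 promoters in the whole table (19.6%). Not all of these lie at the start itself, and that of Rps16 begins at base 15 of the gene. On either strand of the 300 bases of the entry (250 before the start), GGGCGG, the core of a GC box, was present in 23 (62.2%, against 33.1% of all), CCGGAAG, the core of ETS factor sites, in 9 (24.3% against 8.75%), and AAGATGG, the core of YY1 sites, in 8 (21.6% against 7.01%); each motif was searched alone, and matches may overlap each other or the tract. These are matches of letters, and no match says only that the letters are not in this window. With the paralogues left out, the 20 genes with a tract had median log2 differences from T0 of -0.68, -0.41 and -0.76 at the 3 later times in turn, where the 13 without one had -0.49, -0.45 and -0.66. Both groups thus had negative medians at every time, and their difference was not tested.

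All values below are on the log2 scale of the deposited arrays, where a difference of -1 is a halving of the signal. The processing brings the arrays to a common scale, with array medians of 5.81 to 5.94. A difference is therefore relative to the other genes of that array, and levels of different genes are not compared. Mean values over the 16 arrays lay at 10 or more for 33 of the 44 genes and under 7 for 5, namely Rpl30 (4.68), Rpl39 (6.46), Rpl3l (3.90), Rps27l (5.56) and Rps4y2 (4.17). These 5 low probe sets may carry little signal of their gene, and many ribosomal protein genes have near-identical processed copies elsewhere in the genome, so a probe set's target is uncertain.

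Relative to the other genes of an array, the signals of most ribosomal protein genes were highest at T0. The mean over both fields was highest at T0 for 39 of the 44 genes and lowest at 12 h for 35. The exceptions at the top were 4 genes highest at 3 h and 1 highest at 12 h. Among the 8 groups, CA1 at T0 was the highest for 34 genes and CA1 at 12 h the lowest for 28. How many genes outside the family did the same was not counted. The median over the genes went from 11.70 at T0 in CA1 to 11.22 at 30 min, 11.21 at 3 h, then 10.93 at 12 h, and in CA3 from 11.64 to 11.10, 11.12 and 11.01. The 2 arrays of a group differed most for CA1 at 12 h, where the median SD over the genes was 0.695, and least for CA1 at T0, with 0.183.

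**Figure D1:**
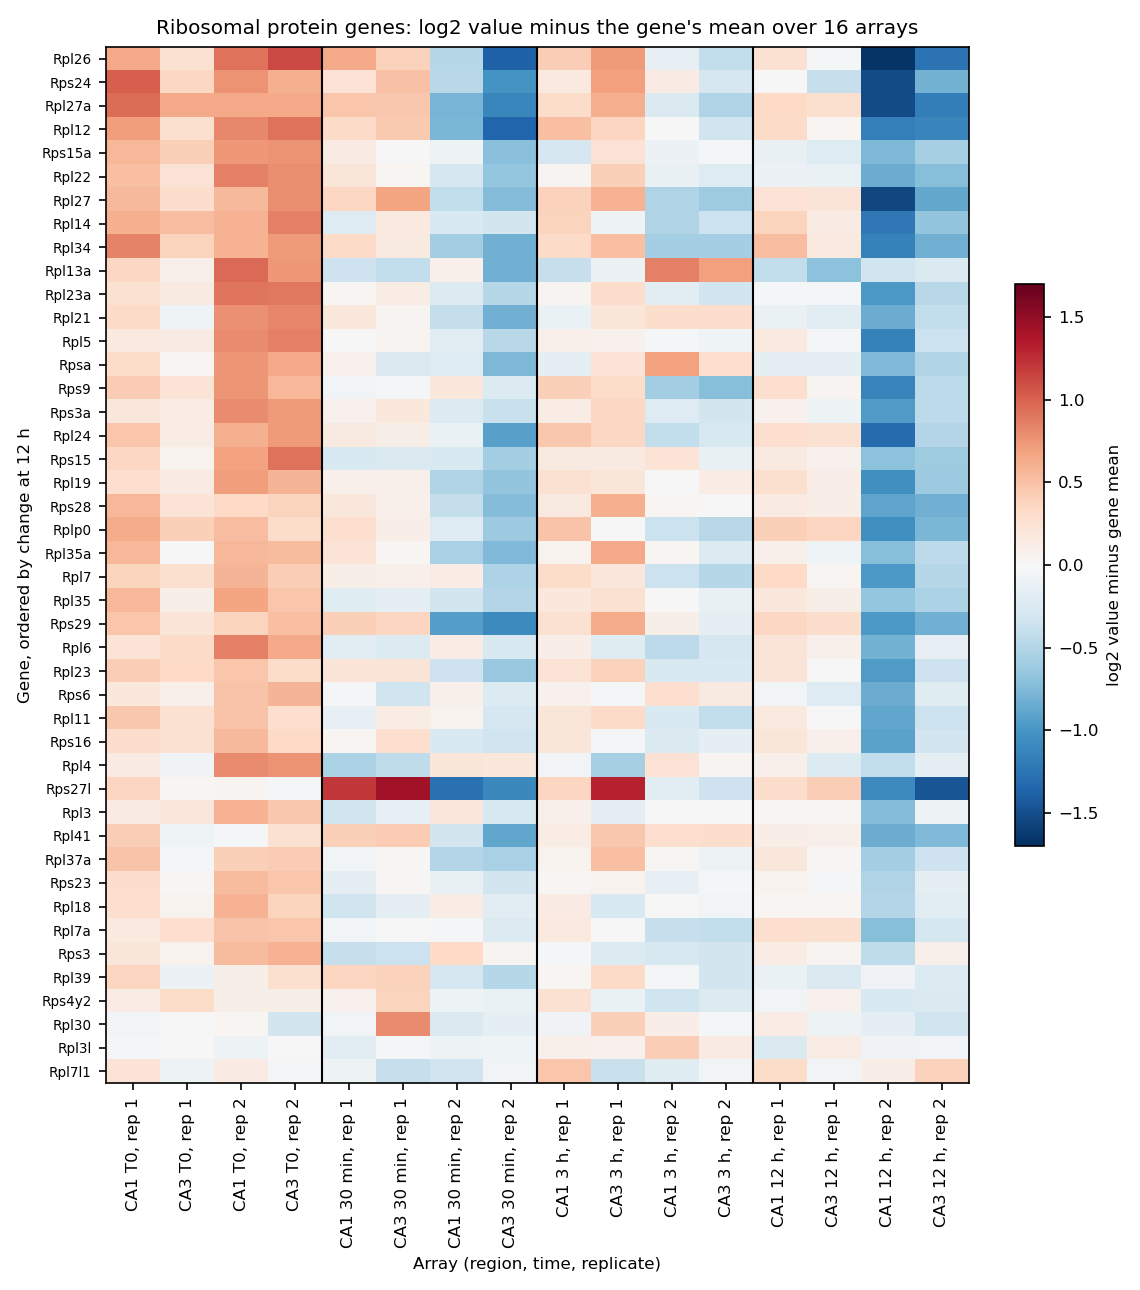
The heat map shows each gene's log2 value on each of the 16 arrays minus its mean over all arrays (red above, blue below, colour scale clipped at 1.7 on both sides), with genes in the order of their difference at 12 h. The 4 T0 columns are mostly red, the replicate 2 columns of 30 min and 12 h are mostly blue. Rps27l is red in the replicate 1 columns of 30 min, and Rpl30, Rpl3l and Rpl7l1 show little of that pattern.

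Averaged over CA1 and CA3, with 4 arrays against the 4 of T0, the median log2 difference of the 44 genes was -0.59 at 30 min, -0.41 at 3 h and -0.70 at 12 h. The difference was below 0 for 43, 40 and 43 genes. Over all 15866 probe sets the medians were 0.00, 0.05 and -0.02, and 50.4%, 41.6% and 54.5% were below 0. Over the 240 other probe sets of like mean level (10.2 to 11.9) the medians were -0.06, -0.26 and -0.20, and 57.9%, 78.8% and 64.6% were below 0. These other bright probe sets were thus also shifted downward, most at 3 h. They are not free of ribosomal protein genes. The 34 probe sets with several symbols were not kept out of them, nor was Rack1 (mean 10.97). How far this moved their medians and counts was not tested. The 3 times share the T0 arrays and are therefore not separate evidence.

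Of the single genes, 1 fell by limma's test at an adjusted p under 0.05, Rps15a at 12 h. No member was called at 30 min or 3 h, and none rose at any time. The share of all probe sets called lower was 0.101% at 30 min, 0.158% at 3 h and 1.23% at 12 h. Called higher were 1, 4 and 133 of the 15866 in turn. A count of 0 or 1 in 44 is near this background in either direction. At an unadjusted p under 0.05, 18 genes (40.9%) were found at 30 min, 6 (13.6%) at 3 h and 28 (63.6%) at 12 h, beside 7.46%, 9.09% and 18.2% of all probe sets. The p-values and standard errors (SE, given as ±) of the averaged differences take CA1 and CA3 arrays as independent. Same-numbered arrays of a time deviated together (r 0.57 to 0.67 over probe sets), so both may be too small. With such arrays taken as pairs, the count called at 12 h was 0. All 4 arrays lay below all 4 T0 arrays for 19 genes at 30 min, 9 at 3 h and 20 at 12 h, where the same held for 3.66%, 3.69% and 8% of all probe sets and for 26, 27 and 37 of the 240 probe sets of like level.

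The size of the difference depended on the replicate. Taken from the same-numbered T0 arrays, the median over the 44 genes in replicate 1 was -0.24 at 30 min, -0.08 at 3 h, then -0.17 at 12 h, and in replicate 2 it was -0.96, -0.65 and -1.23. The difference was below 0 in both replicates for 36 genes at 30 min, 30 at 3 h and 40 at 12 h. For all probe sets the replicate medians lay between -0.05 and 0.05. The like-level probe sets had -0.12, -0.15 and 0.01 in replicate 1 and -0.05, -0.42 and -0.33 in replicate 2, and 81, 130 and 107 of the 240 were below 0 in both, so at 3 h their replicate 1 median was below the family's. The numbers only loosely tie T0 to later arrays: deviations of same-numbered T0 and later arrays correlated between -0.24 and 0.31 over probe sets, and 5 of 12 pairs were not over 0.1. Deviations at 2 later times correlated between 0.30 and 0.66, with 0 of 12 pairs not over 0.1. Same-numbered later arrays thus deviated together more than they did with T0, and the source of this was not tested. The T0 arrays of replicate 2 were themselves higher in the family (medians of centred values 0.59 in CA1 and 0.57 in CA3) than those of replicate 1 (0.37 and 0.15).

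**Figure D2:**
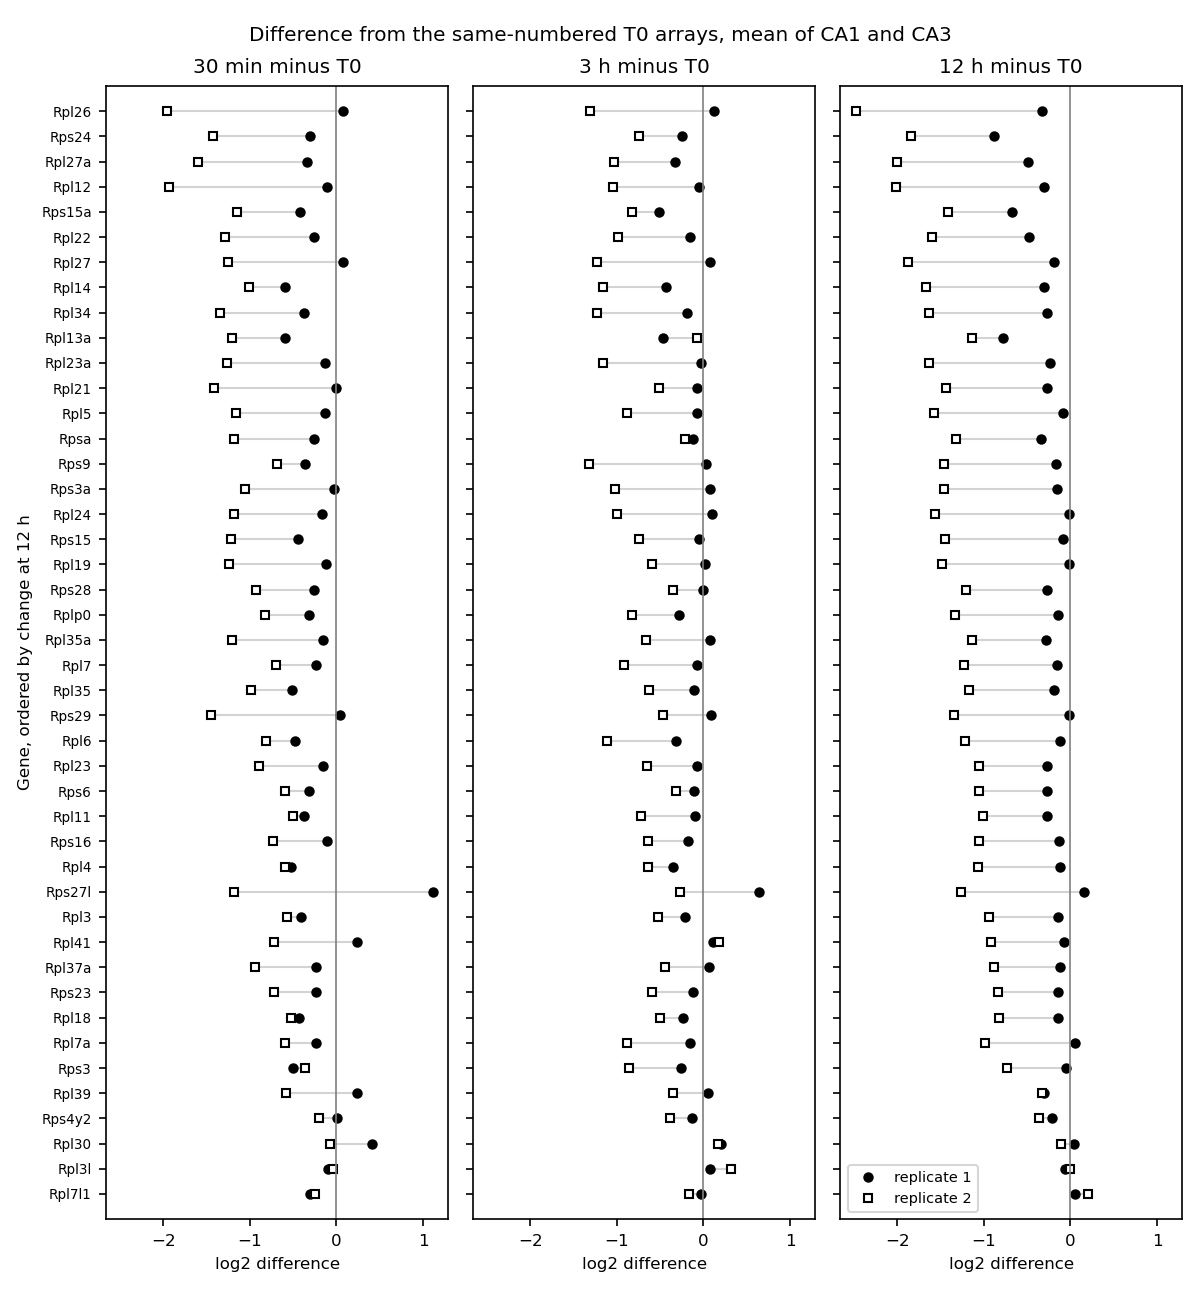
For each gene (rows, in the order of the 12 h difference) the plot gives the log2 difference from the same-numbered T0 arrays, averaged over CA1 and CA3, in replicate 1 (filled circles) and replicate 2 (open squares) at the 3 later times. At 12 h the open squares lie to the left of the filled circles for most genes, from -2.48 for Rpl26 upward, while replicate 1 stays between -0.88 (Rps24) and 0.16 (Rps27l).

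The control signals differed between the replicates too. The Bacillus spike probe sets, which read RNA added in the laboratory, averaged 4.37 and 4.15 on the replicate 2 arrays of CA1 and CA3 at 30 min and 4.36 and 4.32 at 12 h, and between 5.13 and 6.46 on the other 12 arrays. The GAPDH 3′ minus 5′ difference, a sign of shortened RNA or cDNA, was 3.93 on both replicate 2 arrays of 3 h and between 1.29 and 3.08 elsewhere. The same difference for beta-actin was 4.15 to 5.14 at T0, 3.85 to 4.26 at 30 min, 3.93 to 5.27 at 3 h and 3.79 to 4.19 at 12 h. The BioB control signal ran from 5.76 (CA1 30 min replicate 2) to 10.59 (CA3 30 min replicate 1). Without the 4 arrays of low spike signal the median of the family was -0.35 at 30 min (39 of 44 below 0) and -0.31 at 12 h (41 of 44), and with the spike signal as a covariate it was -0.30, -0.29 and -0.29 at the 3 times. Without the replicate 2 arrays of 3 h the 3 h median was -0.23 (37 of 44), and after cyclic loess it was -0.10 (29 of 44) at 3 h and -0.47 at both other times. Without CA1 12 h replicate 2 alone, the 12 h median was -0.44, and without CA1 12 h replicate 1 alone it was -0.97. With the GAPDH difference as a covariate the medians were -0.69, -0.32 and -0.80. All of these kept the sign, some nearer 0 and some farther from it.

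**Figure D3:**
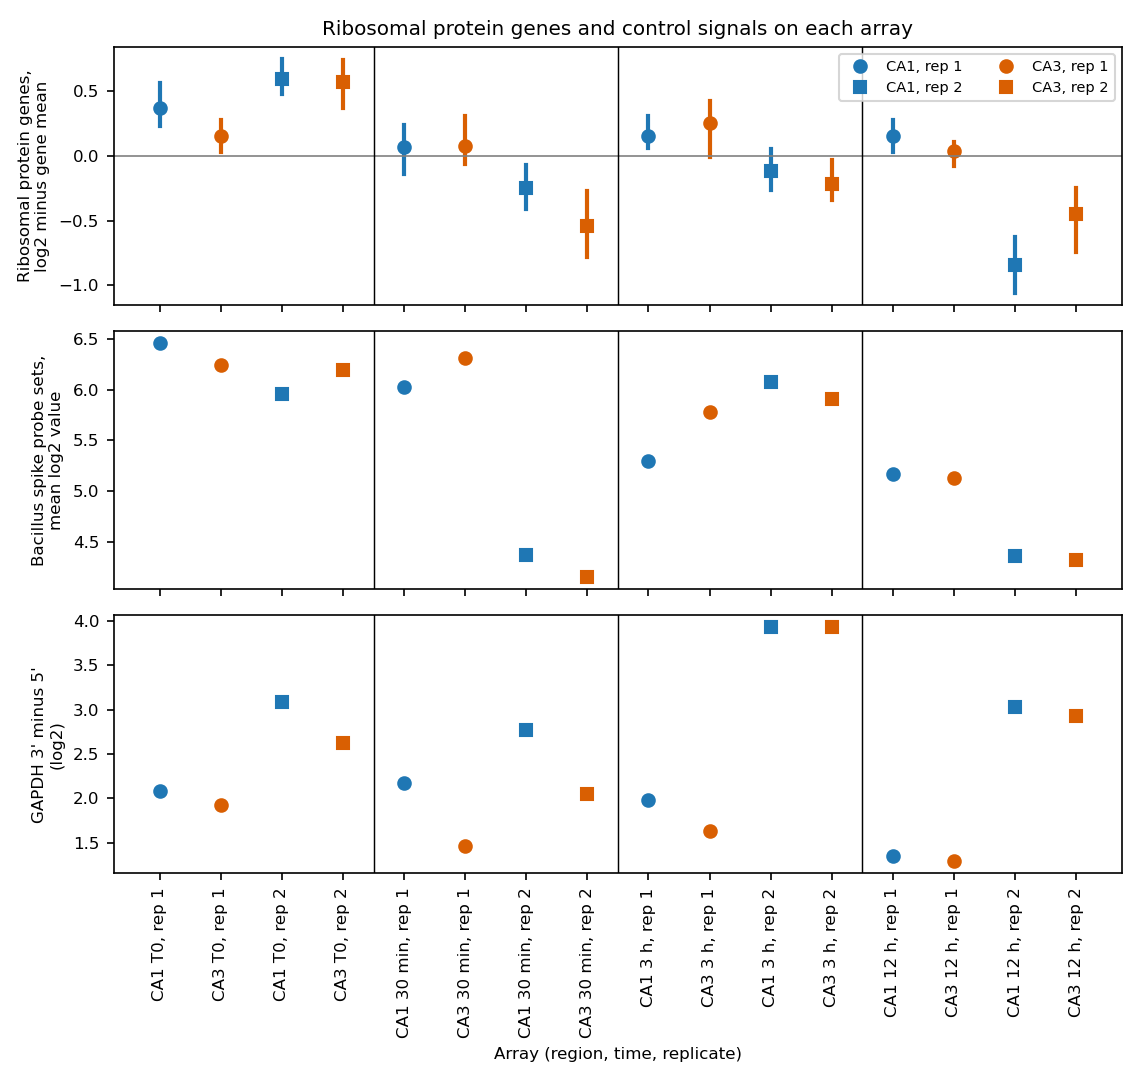
The top panel gives, for each array, the median (point) and quartiles (bar) of the 44 genes' log2 values minus each gene's mean; the lower panels give the mean log2 value of the Bacillus spike probe sets and the log2 difference between the 3′ and 5′ GAPDH probe sets. The family's median runs from 0.59 on CA1 T0 replicate 2 to -0.84 on CA1 12 h replicate 2, and the 4 arrays with the lowest spike values also have the 4 lowest family medians.

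Markers of some other cell types and of dividing cells differed after T0 as well. Of 16 measured microglia markers, 5 fell at 12 h, among them C1qc (-2.48 ± 0.49) and Lyz2 (-2.00 ± 0.31), and the list's median was -0.56 at 30 min, -0.68 at 3 h and -1.93 at 12 h. Their summed level was 13.61 to 14.12 on the T0 arrays and 11.37 to 12.66 on the 12 h arrays, and none of the 16 had a mean under 5. The size of their difference also depended on the replicate. At 12 h the median of their centred values was -0.58 in CA1 and -0.09 in CA3 in replicate 1, and -1.72 and -1.69 in replicate 2. On the T0 arrays it was between 0.43 and 1.00. Of 26 cell cycle genes, 5 fell at 30 min, 9 at 3 h and 19 at 12 h. The 10 measured excitatory neuron markers had medians of 0.62, 0.32 and 2.19, with 2 that rose at 12 h (Stmn2 and Slc17a6) and a summed level of 9.26 to 12.24 at T0 and 12.25 to 12.86 at 12 h. At 12 h 1 of 8 inhibitory neuron markers and 1 of 5 CA1 pyramidal markers also rose. No astrocyte (12 measured), oligodendrocyte (8), oligodendrocyte precursor (4), fibroblast (12), endothelial and mural (10) or CA3 pyramidal (5) marker was called at any time, and 8 of the 10 endothelial and mural markers had a mean under 5. As a check of the field labels, the 5 measured CA1 pyramidal markers had a median CA1 minus CA3 of -0.10 at T0 (3 of 5 lower in CA1), 0.56 at 30 min (1 lower), 0.39 at 3 h (2 lower) and 1.68 at 12 h (none lower). The 5 measured CA3 markers had medians between -0.13 and 0.09, and none of the 10 was called between the fields. The marker calls over time also take CA1 and CA3 arrays as independent, and no alternative fit is given for them. What these shifts contribute to the ribosomal protein values was not tested.

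The small-subunit genes numbered 12, all with differences below 0 at every time, and their medians were -0.57, -0.41 and -0.76. Rps15a, a protein of the small subunit's body, is the gene that was called. Its replicate 1 and 2 values were 10.43 and 10.60 at T0, 10 and 9.78 at 30 min, 9.58 and 9.76 at 3 h and 9.73 and 9.10 at 12 h in CA1. In CA3 they were 10.27 and 10.62, 9.87 and 9.15, 10.10 and 9.84, and 9.64 and 9.30. Every T0 array was above every later array of either field. At 12 h Rps15a fell by 1.04 ± 0.20 (SE, 4 arrays against 4, limma adjusted p = 0.0327), with -0.67 in replicate 1 and -1.41 in replicate 2. At 30 min the difference was -0.78 ± 0.20 (adjusted p = 0.277) and at 3 h -0.66 ± 0.20 (adjusted p = 0.317). The call at 12 h was lost when CA1 and CA3 arrays of one time and number were taken as pairs (adjusted p = 0.294), without the arrays of low spike signal (-0.80, adjusted p = 0.278), with the spike covariate (-0.63, adjusted p = 0.424), with an intensity trend and robust prior together (adjusted p = 0.0553) and without the 3 h replicate 2 arrays (adjusted p = 0.0535). It was also lost without CA1 T0 replicate 1 or 2, CA3 T0 replicate 2, CA1 12 h replicate 2, or CA3 12 h replicate 1 or 2, where the difference was between -1.12 and -0.88 and the adjusted p between 0.0641 and 0.14.

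Rps24, a small-subunit protein whose loss of a copy causes Diamond-Blackfan anaemia in people, had the widest range of group means, 1.64. In CA1 it stood at 8.91 and 8.65 at T0, 8.14 and 7.42 at 30 min, 8.06 and 8.03 at 3 h and 7.89 and 6.37 at 12 h. In CA3 it stood at 8.24 and 8.49, 8.39 and 6.87, 8.59 and 7.61, and 7.50 and 7.08. The 12 h arrays were all below the T0 arrays, while at 30 min and 3 h the groups overlapped through CA3 replicate 1. The differences were -0.87 ± 0.40, -0.50 ± 0.40 and -1.36 ± 0.40 (limma adjusted p = 0.682, 0.714 and 0.106). Its lowest value in a field was CA1 at 12 h, -1.64 ± 0.57. A second probe set of Rps24 was dim (mean 3.78) and lay at 0.04 at 12 h.

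Rps6, the protein that S6 kinase phosphorylates downstream of mTOR, stood in CA1 at 12.26 and 12.57 at T0 and at 12.03 and 11.24 at 12 h, and in CA3 at 12.17 and 12.66 and at 11.86 and 11.88. All 4 values at 12 h were thus below those at T0. The difference was -0.66 ± 0.18 (limma adjusted p = 0.0926) at 12 h, after -0.46 ± 0.18 at 30 min and -0.21 ± 0.18 at 3 h. Rpsa, which is also known as a laminin receptor, had -0.72 ± 0.24, -0.17 ± 0.24 and -0.83 ± 0.24, and its 2 other probe sets had -0.55 and -0.80 at 12 h. Rps15 had -0.83 ± 0.25 at 30 min, -0.40 ± 0.25 at 3 h and -0.77 ± 0.25 at 12 h. The smallest difference of the subunit at 12 h was that of Rps3, which sits where the mRNA enters, at -0.39 ± 0.21; at 3 h it was -0.56 ± 0.21, with all 4 arrays below T0. Rps23, of the decoding centre, had -0.48, -0.36 and -0.49, and Rps28, Rps29, Rps3a, Rps9 and Rps16 lay between -0.82 and -0.59 at 12 h.

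**Figure D4:**
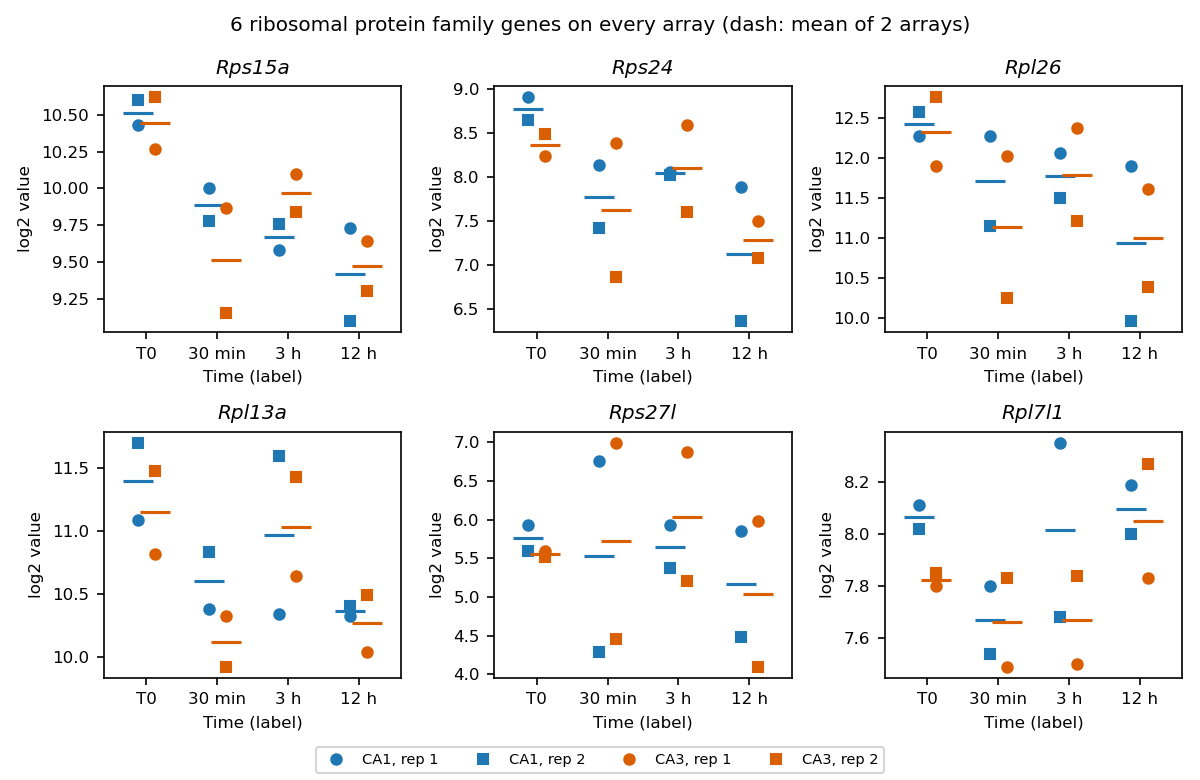
Each panel plots the log2 values of 1 gene on all 16 arrays by time, for CA1 (blue) and CA3 (orange), with replicate 1 as circles, replicate 2 as squares and the mean of each 2 arrays as a dash; the vertical axes differ. Rps15a, Rps24 and Rpl26 are highest at T0, Rpl13a at 3 h is near its T0 values in replicate 2, Rps27l parts by replicate at 30 min, and Rpl7l1 stays between 7.49 and 8.35.

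The large-subunit genes numbered 28, with medians of -0.65, -0.46 and -0.72. Differences were below 0 for 27 genes at 30 min, 26 at 3 h and 28 at 12 h. None was called at any time by limma. Rpl26, at the exit of the peptide tunnel, had the lowest 12 h difference of the family. In CA1 it stood at 12.28 and 12.57 at T0, 12.28 and 11.15 at 30 min, 12.06 and 11.50 at 3 h and 11.90 and 9.97 at 12 h, and in CA3 at 11.90 and 12.76, 12.03 and 10.26, 12.37 and 11.22, and 11.62 and 10.39. At least 1 replicate 1 array reached the lowest T0 value at every time (CA1 alone at 12 h), and the replicate 2 values were the low ones. The difference was -0.95 ± 0.54 at 30 min, -0.59 ± 0.54 at 3 h and -1.41 ± 0.54 at 12 h (limma adjusted p = 0.199), made of -0.33 in replicate 1 and -2.48 in replicate 2.

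Rpl27a had the longest tract of the 8 shown, and in CA1 it stood at 13.06 and 12.75 at T0, 12.58 and 11.32 at 30 min, 12.42 and 11.87 at 3 h and 12.45 and 10.59 at 12 h. In CA3 the values were 12.76 and 12.76, 12.57 and 11.00, 12.73 and 11.60, and 12.39 and 10.93. Every later array was below every T0 array. The differences were -0.97 ± 0.52, -0.68 ± 0.52 and -1.24 ± 0.52 (limma adjusted p = 0.24 at 12 h). Rpl22, an RNA-binding protein of the large subunit that is dispensable for general protein synthesis, was second to Rps15a in adjusted p at 12 h (0.0681). Its CA1 values were 12.18 and 12.52 at T0 and 11.57 and 10.83 at 12 h, and its CA3 values 11.91 and 12.46 and 11.56 and 10.94, without overlap. It had -0.78 ± 0.26 at 30 min, -0.57 ± 0.26 at 3 h and -1.04 ± 0.26 at 12 h.

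The P stalk, where elongation factors dock, was represented by Rplp0 and Rpl12. Rpl12 had the lowest 30 min difference, -1.02 ± 0.48, then -0.55 ± 0.48 and -1.16 ± 0.48. Its 30 min arrays were 11.74 and 10.64 in CA1 and 11.85 and 10.06 in CA3, against 12.12, 12.23, 11.68 and 12.34 at T0, so the replicate 1 arrays reached into the T0 range and the replicate 2 arrays did not. Rplp0, often used as a reference gene in PCR, had -0.58 ± 0.36, -0.55 ± 0.36 and -0.73 ± 0.36, with all 4 arrays below T0 at 30 min. The 5S ribonucleoprotein genes Rpl5 and Rpl11, whose free proteins bind Mdm2 and so stabilise p53, had 12 h differences of -0.84 ± 0.28 and -0.64 ± 0.25. At 3 h they had -0.48 and -0.41.

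The 6 measured genes of the exit tunnel had medians of -0.69, -0.43 and -0.72. Beside Rpl26 they were Rpl23a (-0.93 ± 0.28 at 12 h), Rpl19 (-0.75 ± 0.31), Rpl35 (-0.68 ± 0.21), Rpl4 (-0.59 ± 0.27) and the dim Rpl39 (-0.32 ± 0.23). Rpl39 had -0.17 at 30 min and -0.15 at 3 h, and its 30 min difference was 0.22 without the low-spike arrays. The 10 measured genes mutated in Diamond-Blackfan anaemia, which overlap these groups, had medians of -0.66, -0.39 and -0.72, close to those of the family.

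Rpl13a, which after release from the ribosome silences inflammatory mRNAs in monocytes, was among the genes far from the family's mean profile. It stood at 11.09 and 11.70 in CA1 at T0, 10.38 and 10.83 at 30 min, 10.34 and 11.60 at 3 h and 10.32 and 10.40 at 12 h, and in CA3 at 10.82 and 11.48, 10.32 and 9.92, 10.64 and 11.43, and 10.04 and 10.49. At 3 h the replicate 2 arrays were near their T0 values (-0.07) while replicate 1 was at -0.47. Rpsa and Rpl41 had a like course in replicate 2, with -0.21 and 0.18 at 3 h between lower values at 30 min and 12 h. The differences were -0.91 ± 0.30, -0.27 ± 0.30 and -0.96 ± 0.30 (limma adjusted p = 0.447, 0.792 and 0.128).

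Among the rest of the large subunit, Rpl14 had the lowest 3 h difference, -0.80 ± 0.34, with -0.81 and -0.99 at 30 min and 12 h, and its second, dim probe set (mean 4.02) had 0.08 at 3 h. Rpl34 had -0.86, -0.71 and -0.96, Rpl6 -0.65, -0.71 and -0.67, and Rpl27 -0.58, -0.58 and -1.03. Rpl3, which reaches to the peptidyl transferase centre, had -0.49 ± 0.19, -0.37 ± 0.19 and -0.54 ± 0.19. Rpl41, the smallest ribosomal protein, was the bright gene with the highest 3 h value, 0.15 ± 0.33, and stood at -0.24 and -0.50 at the other times. The dim Rpl30 had 0.17 ± 0.21, 0.18 ± 0.21 and -0.03 ± 0.21. The 8 others (Rpl7, Rpl7a, Rpl18, Rpl21, Rpl23, Rpl24, Rpl35a and Rpl37a) had 12 h differences between -0.85 and -0.47.

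The 4 paralogues had medians of -0.09, 0.04 and -0.16, nearer 0 than both subunits, though 3 of them are dim; this difference was not tested. Rps27l, a target gene of p53, gave 5.93 and 5.60 in CA1 at T0, 6.76 and 4.29 at 30 min, 5.93 and 5.37 at 3 h and 5.86 and 4.48 at 12 h. In CA3 it gave 5.59 and 5.52, 6.99 and 4.46, 6.87 and 5.21, and 5.98 and 4.10. At 30 min replicate 1 was thus above T0 in both fields and replicate 2 below it, with differences of 1.11 and -1.19. The averaged differences were -0.04 ± 0.71, 0.18 ± 0.71 and -0.56 ± 0.71, and without the low-spike arrays the 30 min value was 1.21. Rpl7l1, a nucleolar protein of ribosome assembly, had -0.28 ± 0.18, -0.10 ± 0.18 and 0.13 ± 0.18, and its second probe set had 0.07, -0.19 and 0.14. Its values at 12 h, 8.19 and 8.0 in CA1 and 7.83 and 8.27 in CA3, overlapped those at T0, 8.11, 8.02, 7.80 and 7.85. Rpl3l, the form of Rpl3 found in skeletal and heart muscle, lay between 3.65 and 4.31 on every array. At 3 h its 4 arrays were above the 4 of T0 (0.20 ± 0.11), as held for 477 of all 15866 probe sets. Its differences were -0.07 at 30 min and -0.03 at 12 h. Rps4y2, a copy of the Rps4 family, had the narrowest range of group means, 0.38, and stood at -0.10, -0.26 and -0.28.

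Within the fields the differences had the same sign and 2 arrays stood against 2. In CA1 the medians were -0.57 at 30 min, -0.46 at 3 h, then -0.83 at 12 h, and in CA3 -0.61, -0.38 and -0.56. No member was called by limma in either field, where 0.0126%, 0.0063% and 0.208% of all probe sets were called in CA1 and 0%, 0% and 0.0063% in CA3; at an unadjusted p under 0.05 there were 5, 1 and 18 genes in CA1 (11.4%, 2.27% and 40.9%, beside 4.96%, 4.56% and 11.3% of all probe sets) and 6, 0 and 2 in CA3 (13.6%, 0% and 4.55%, beside 3.04%, 3.93% and 6.93%). The shares at 3 h in both fields and at 12 h in CA3 were thus below those of all probe sets. The lowest in CA1 were Rps24 at 30 min (-1.0 ± 0.57), Rps15a at 3 h (-0.85 ± 0.28) and Rps24 at 12 h, and in CA3 Rpl26 at 30 min (-1.19 ± 0.77), Rpl14 at 3 h (-0.93 ± 0.47) and Rpl26 at 12 h (-1.33 ± 0.77). The highest were Rpl3l in CA1 at 30 min (-0.09) and 3 h (0.30) and Rpl7l1 at 12 h (0.03), and in CA3 Rpl30 at 30 min (0.48), Rps27l at 3 h (0.48) and Rpl7l1 at 12 h (0.22). With the spike covariate the medians were -0.32, -0.32 and -0.48 in CA1 and -0.33, -0.28 and -0.15 in CA3, the last with 29 of 44 genes below 0. After cyclic loess they were -0.12 and -0.10 at 3 h in CA1 and CA3 and -0.46 at 12 h in CA1. Single arrays moved these medians too. Without CA1 12 h replicate 1 the 12 h median in CA1 was -1.34, and without replicate 2 it was -0.32. In CA3 it was -0.32 without 12 h replicate 2. The CA3 medians at 30 min were -0.29 without replicate 2 of that time, -0.97 without replicate 1 and -0.38 without T0 replicate 2. At 3 h the CA3 median was -0.13 without replicate 2 and -0.15 without T0 replicate 2, and the CA1 median was -0.28 without CA1 3 h replicate 2.

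The change in CA1 minus the change in CA3 had a median of 0.02 at 30 min, -0.12 at 3 h, then -0.25 at 12 h, and was below 0 for 19, 29 and 41 of the 44 genes. None was called by limma (0% of all probe sets at each time), and none had an unadjusted p under 0.05. The like-level probe sets had 0.13, -0.03 and -0.22. At 12 h the median was -0.76 without CA1 12 h replicate 1, 0.19 without CA1 12 h replicate 2 and 0.01 after cyclic loess, so its sign rests on 1 array. Leaving out single arrays gave -0.32 to 0.32 at 30 min and -0.36 to 0.12 at 3 h, so those signs also depended on 1 array.

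CA1 and CA3 themselves differed little in this family. Averaged over the 4 times, CA1 minus CA3 had a median of 0.03, with 30 genes higher in CA1 and 14 lower, and no gene was called by limma (0% of all probe sets) or had an unadjusted p under 0.05. The values ran from -0.09 ± 0.34 for Rpl27 to 0.19 ± 0.22 for Rpl13a. The other high ones were Rpl12 (0.19 ± 0.34), Rplp0 (0.17 ± 0.25), Rpl7l1 (0.16 ± 0.13) and Rpl26 (0.15 ± 0.38), and the other low ones Rpl30 (-0.07), Rpl14 (-0.06), Rps27l (-0.06) and Rpl3l (-0.05). By time the medians were 0.14 at T0 (38 genes higher in CA1), 0.13 at 30 min (37), -0.01 at 3 h (22) and -0.13 at 12 h (8), with no call at any time (0% of all probe sets at each). The like-level probe sets had 0.04, 0.14, -0.04 and -0.19 in turn, with 45.0%, 26.7%, 55.8% and 82.1% of them lower in CA1. Bright probe sets outside the family thus shared the shifts at 30 min and 12 h. The largest single differences were those of Rps24 at T0 (0.41 ± 0.57), Rpl26 at 30 min (0.57 ± 0.77), Rps27l at 3 h (-0.39 ± 1.01) and Rpl24 at 12 h (-0.39 ± 0.54).

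The 2 replicate pairs of a time did not repeat each other. At T0 the median of CA1 minus CA3 was 0.23 in pair 1 and 0.02 in pair 2. It was -0.02 and 0.30 at 30 min, -0.10 and 0.11 at 3 h, and 0.10 and -0.33 at 12 h. In the 12 h pair 1, 38 of 44 genes were higher in CA1, and in pair 2, 41 of 44 were lower.

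The genes varied together over the arrays to different degrees, measured as the root mean square distance of a gene's centred values from the family's mean profile over the 16 arrays. The distance was 0.12 for the nearest, Rpl23, and 0.68 for the farthest, Rps27l, followed by Rpl13a (0.50), Rpl26 (0.46), Rpl7l1 (0.46) and Rpl4 (0.42). A flat profile lies at 0.37, and 36 of the 44 genes were nearer than that. The profile is the mean of these same 44 genes, and how many outside genes were nearer than 0.37 was not counted. The median distance of the 44 genes was 0.25, and the 10 nearest outside genes were all nearer (0.11 to 0.18), so closeness to this profile is not particular to the family. Of 10367 genes outside the family, those nearest to its mean profile were Tmod3 (0.11), which caps actin filaments, Gdi2 (0.13), a regulator of Rab proteins, Snrpd2 (0.16), a core spliceosome protein, then Tex261, Dlg5, Dpp8, Anapc13 and Eif3a (0.17 each), Twf1 and Rack1 (0.18 each). Eif3a is a subunit of the translation initiation factor eIF3, and Rack1 is itself a protein of the small subunit that the name rule does not catch. Rack1 had differences of -0.44, -0.46 and -0.72, and Tmod3 -0.61, -0.31 and -0.81.

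Other genes of the pathway were read from lists by function. Elongation factors and other genes with TOP mRNAs, 14 of 19 measured, had medians of -0.49, -0.57 and -0.53, with 14, 13 and 14 below 0 and none called. Among them Eef1b2, Eef1g and Eef1a1, of the complex that brings tRNA to the ribosome, had 12 h differences of -0.95, -0.85 and -0.70. Ribosome assembly and rRNA synthesis genes, 39 of 50 measured, had -0.27, 0.08 and 0.10, with 32 below 0 at 30 min and 16 at 12 h. Among them Gnl3, the nucleolar protein nucleostemin, rose at 12 h by 0.80 ± 0.15 (limma adjusted p = 0.0317), and no other was called at any of the 3 times. The nucleolar genes Nop58, Ddx21 and Ncl had -0.95, -0.90 and -0.82 at 30 min.

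Control genes of the mTOR pathway, 18 of 22 measured, had medians of 0.02, 0.07 and 0.15. Mtor, the kinase itself, fell by 0.83 ± 0.17 at 12 h (limma adjusted p = 0.0413) and was the only one called. This call and that of Gnl3 take CA1 and CA3 arrays as independent, and no alternative fit is given for either gene. Ddit4, an inhibitor of mTOR that stress induces, had 1.48 ± 0.57 at 12 h (limma adjusted p = 0.201), and Larp1, which binds TOP mRNAs, had -0.44 at 30 min and 0.36 at 3 h. The 71 mitochondrial ribosomal protein genes, which serve the separate ribosome of that organelle, had -0.04, -0.22 and -0.05, with 41, 60 and 39 below 0 and none called.

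**Figure D5:**
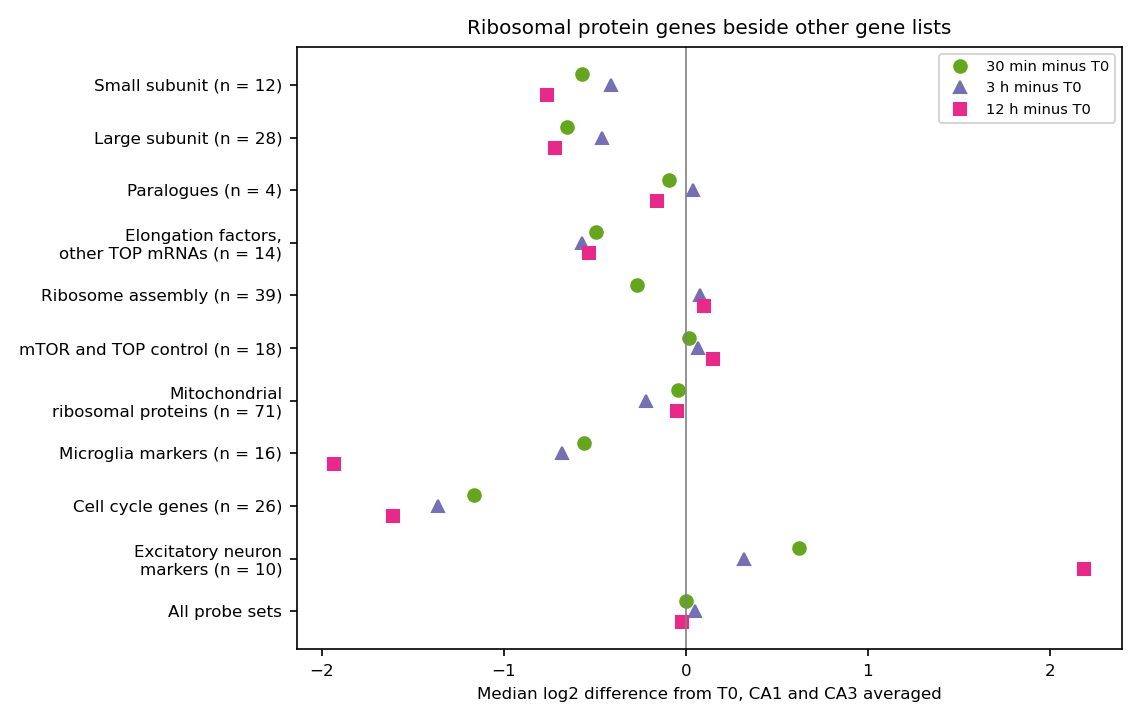
For each gene list (rows, with the number of genes measured) the plot gives the median log2 difference from T0, averaged over CA1 and CA3, at 30 min (circles), 3 h (triangles) and 12 h (squares). The 2 subunits and the TOP list lie between -0.76 and -0.41, the mitochondrial and assembly lists between -0.27 and 0.10, and microglia, cell cycle and excitatory neuron markers reach -1.93, -1.61 and 2.19 at 12 h.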

How the data were processed

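RNA was labelled by the 2-cycle Affymetrix procedure and hybridised to 16 arrays. Per the submitters' processing notes the authors used RMA, and the deposited values are log2 signals; which version was run is not given in the sources used here. Control probe sets (57) were kept out of the tests. Gene names came from GEO's platform annotation (12783 probe sets with 1 symbol, 312 with several, 2771 with none); 42 members matched RefSeq by Entrez identifier, with no differing symbol. Array medians were 5.81 to 5.94, and the number of arrays limits the precision.

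One limma model (version 3.58.1, R 4.3.3; lmFit and eBayes, residual df 8) was fitted to 8 group means over 15866 probe sets, without filter or covariate, with Benjamini-Hochberg adjustment within a contrast and a threshold of 0.05. It was tested on simulated data in which every array was drawn independently. That test therefore cannot speak for arrays that deviate together. Within a time, same-numbered CA1 and CA3 arrays deviated together (r 0.57 to 0.67 over probe sets, 4 of 4 times), so they were taken as pairs in an alternative.

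Members, lists, tests and alternatives were chosen with earlier results of these data known. Named genes are those called, the 5 lowest and 5 highest in each averaged contrast, the extremes per field and time, the role lists and a few genes chosen for their function, the extremes of range, and the 5 farthest from and the 10 outside genes nearest to the mean profile; second probe sets and a few further members were named after their values were seen.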

Additional observations from a re-analysis of the deposited data

How the results depend on the processing

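With 2 arrays a group, 8 residual degrees of freedom and dim probe sets for 5 genes, small differences could not be separated from array spread. At 12 h, averaged over the fields, 1 gene was called. The count was 6 with the replicate number as a replicate block over all groups, whose pairing of T0 with later arrays was not borne out (5 of 12 correlations not over 0.1), and among them were Rpl22, Rpl27a and Rps24. It was 20 with the GAPDH difference as a covariate (1 in CA1), and 0 with pairs within a time (replicate block within time), an intensity trend with robust prior, the spike covariate, no low-spike arrays, or no 3 h arrays of high GAPDH difference. Leaving out single arrays gave 0 to 3, the 3 without CA1 12 h replicate 1. The pairs were not fitted within a field. In CA1 the 12 h median was -0.32 without the low-spike arrays and -1.34 to -0.32 without single arrays; the interaction at 12 h was -0.76 to 0.19 and CA1 minus CA3 at 12 h -0.63 to 0.35. All other counts and medians stayed within 1.5 times the count or within the array spread of 0.45. That spread is a wide limit, larger than the size of the averaged 3 h median of -0.41. Within it, the 3 h median went to -0.10 after cyclic loess. The CA3 median at 12 h went from -0.56 to -0.15 with the spike covariate. The cause of these shifts was not tested.

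Some uncalled values near 0 changed sign. Without the low-spike arrays, Rpl39, Rps27l and Rps4y2 were at 0.22, 1.21 and 0.06 at 30 min and Rpl30 at 0.10 at 12 h; with the spike covariate the first 3 were at 0.14, 1.18 and 0.03 at 30 min, and Rpl30, Rpl39 and Rpl7l1 at 0.41, 0.13 and -0.02 at 12 h. Rpl7l1 was at 0.02 at 3 h after cyclic loess. CA1 minus CA3 was 0.01 for Rpl14 without the 3 h arrays of high GAPDH difference, and 0.06, 0.10 and 0.20 for Rpl14, Rpl27 and Rps27l with the GAPDH covariate. Leaving out single arrays gave ranges that crossed 0 at 30 min for Rpl30 (-0.08 to 0.41), Rpl39 (-0.39 to 0.05), Rps27l (-0.67 to 0.59) and Rps4y2 (-0.22 to 0.02), at 3 h for Rpl7l1 (-0.27 to 0.07) and Rps27l (-0.23 to 0.60), at 12 h for Rpl30 (-0.11 to 0.04) and Rpl3l (-0.08 to 0.01), and between the fields for Rpl12 (-0.04 to 0.41), Rpl14 (-0.26 to 0.14), Rpl26 (-0.10 to 0.39), Rpl27 (-0.32 to 0.13), Rpl30 (-0.19 to 0.05), Rplp0 (-0.01 to 0.36) and Rps27l (-0.38 to 0.25).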
